A study of Mus musculus with 12 samples.

Results

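Bipotential mouse embryonic liver (BMEL) cell lines were compared in their undifferentiated state. The 2 arrays of line 14B3 in basal culture were set against the 2 arrays of line 9A1 in basal culture, 4 of the 12 arrays of the series. The comparison was read over autosomal genes only, 11963 of the 12393 genes that the arrays measured. Per the labels, both lines came from the liver of CBA/J x C57Bl/6J mouse embryos 14 days after coitus and were isolated independently. Each line is a single isolate, so the values describe these isolates. The labels name no genetic change and no added agent in either line. The basal condition is given by citation, and the time spent in it is not given in the sources used here. The remaining 8 arrays held the same lines as aggregates, grown for 5 days, or in Matrigel, a basement membrane gel, for 10 days, except that Matrigel_14B3 replicate 1 carries a label of 5 days. Each of the 6 groups held 2 arrays, called biological replicates in the design. How their cultures were kept apart is not stated, so each p-value rests on the spread among these samples alone, and that spread may be technical.

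The embryonic liver at this stage contains hepatoblasts, progenitor cells that give rise both to hepatocytes and to the cells of the bile ducts. Hepatoblasts carry hepatocyte transcription factors such as Hnf4a together with simple epithelial keratins, and BMEL lines were derived as cultured counterparts of them. The question was how the lines already differ before the culture is changed.

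Values were log2 signal intensities after robust multi-array averaging (RMA), with 1 probe set per gene. Array medians on the linear scale ran from 268 to 281. The 2 basal arrays of 9A1 correlated at r = 0.992 across genes, and so did those of 14B3. Differences are log2 values, 14B3 minus 9A1, and their standard errors (SE) come from a model of all 12 arrays by line and culture. A gene was called at an adjusted p below 0.05 (limma, Benjamini-Hochberg over all 12393 genes).

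The labelled cell type was checked first. The keratin gene Krt8 read 13.68 and 13.70 in 9A1 and 13.77 and 13.81 in 14B3, its partner Krt18 read 13.60 to 13.72 over the 4 arrays, and Krt19 read 13.28 to 13.79. The hepatocyte factor Hnf4a read 11.32 and 11.83 in 9A1 against 11.75 and 11.70 in 14B3, and Foxa2, a forkhead factor of endoderm, read 10.52 to 11.03. None of these 5 genes was called. Among the other hepatocyte and duct markers, Afp was called higher in 14B3 (2.48) and the duct factor Sox9 lower (-0.83), as given below. Alb, Ttr, Dlk1, Krt7 (-1.09), Cdh1 and Epcam were not called. Array levels of different probe sets are not amounts, and a loose guide to a dim level came from 45 genes of eye, testis, brain, muscle and pancreas. Their basal means had a 90th percentile of 8.26, where the median autosomal gene stood at 8.43. Serum albumin (Alb) lay near that guide at 7.71 to 8.45, and Epcam and Dlk1, surface proteins of hepatoblasts in the liver, stayed under it at 7.49 to 7.94 and 7.14 to 7.51. Sox9 was also under the guide on all 4 arrays, at 7.01 to 8.09. All 5 measured blood cell markers and all 7 markers of stellate cells, fibroblasts and mesothelium were under the guide on the 4 arrays, and so were 3 of 4 endothelial markers. The exception was Kdr, at 8.32 to 8.70. Of longer lists for these cell types, limma called 0 of 33 blood cell genes between the lines (1 at an unadjusted p below 0.05). It called 1 of 27 endothelial genes (Sox17, also a gene of endoderm) and 1 of 31 stellate and fibroblast genes (Cd34). Over all 11963 autosomal genes 217 were called, and 1091 had an unadjusted p below 0.05.

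In basal culture 217 autosomal genes were called, 1.81% of those tested. Of these, 112 were higher in 14B3 (0.936%) and 105 were lower (0.878%). A difference of at least 1 log2 unit was found for 121 called genes (1.01%), 66 higher and 55 lower. The called differences had a median size of 1.06 log2 units, with the smallest at 0.59 among the higher genes and -0.56 among the lower ones. The median over all autosomal genes was 0.05, with 7347 of the 11963 differences above 0 and 4616 below. All 217 had no overlap between the lines' arrays, which held for 42.1% of all autosomal genes. In 56 of the higher genes the 9A1 level was under the guide to a dim level, and in 41 of the lower genes the 14B3 level was. Those folds may be too small. The guide lay just under the median autosomal gene (8.26 against 8.43), so a level under it is not particular to called genes. The share over all genes is not given here. In these bulk samples fewer cells of a type and less RNA per cell cannot be told apart.

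The number of calls depended on single arrays and on the pairing of replicate numbers. Without basal_9A1 replicate 1 it was 59, without basal_9A1 replicate 2 it was 118, without basal_14B3 replicate 1 it was 109 and without basal_14B3 replicate 2 it was 62. A total of 47 genes, 25 higher and 22 lower, were called without each of these arrays in turn. Of 61 called genes named by rule, 30, 19, 20 and 28 lost their call without these arrays, in the same order. With the replicate number as a block 407 genes were called, 190 higher and 217 lower, including all 217 of the fit without the block. With the number as a block within each line 246 were called, including 176 of the 217. Among the genes named by rule, this second block ended the calls of Car8 (adjusted p = 0.0655), Lamb3 (0.0844), Cp (0.117), Aldh3a1 (0.131) and Vegfa (0.056).

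**Figure D1:**
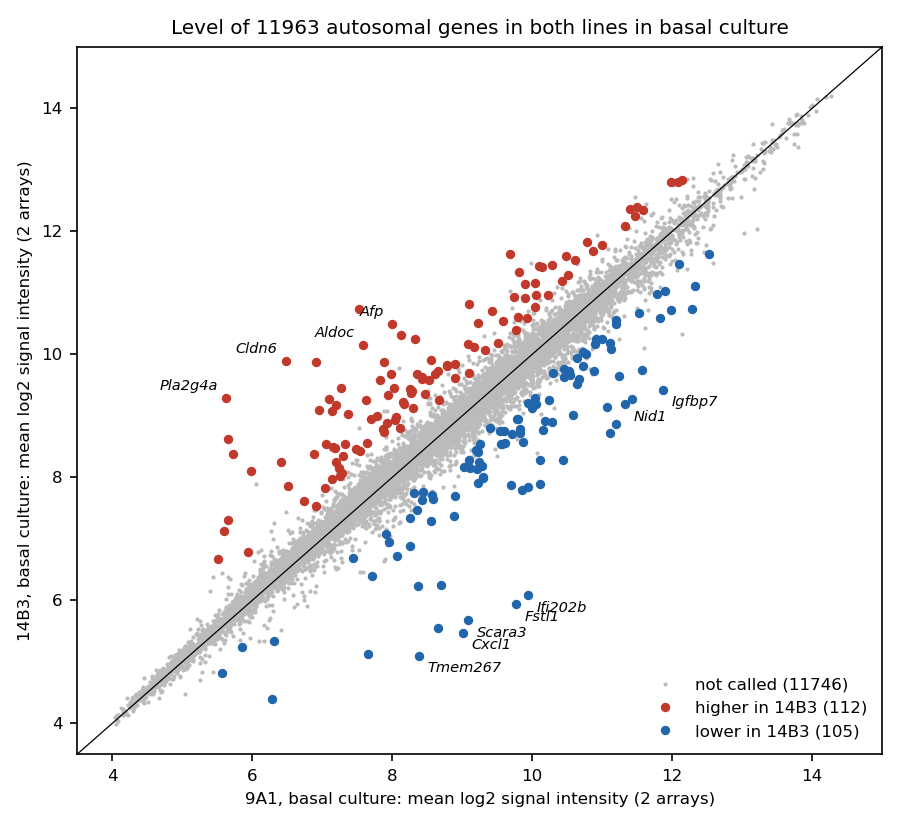
Mean log2 signal intensity of 11963 autosomal genes in 9A1 (x axis) and 14B3 (y axis) in basal culture, 2 arrays each. Red points are the 112 genes called higher in 14B3, blue points the 105 called lower, grey points the rest, and the line marks equal levels. Pla2g4a lies 12.6-fold above the line of equal levels and Ifi202b 14.5-fold below it.

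Pla2g4a had the largest difference among the genes called higher. Pla2g4a, the cytosolic phospholipase A2 that frees arachidonic acid from membranes (Entrez Gene 18783, chromosome 1), read 5.30 and 5.96 on the 9A1 arrays and 9.38 and 9.20 on the 14B3 arrays. The lines were far apart on all arrays, 12.6-fold higher in 14B3 (3.66 ± 0.24 SE, adjusted p = 7.87e-06). Its neighbour on chromosome 1, Ptgs2, encodes cyclooxygenase-2, which turns arachidonic acid into the precursor of prostaglandins. Ptgs2 read 7.29 and 7.10 in 9A1 against 9.51 and 8.86 in 14B3 (1.98 ± 0.24 SE, adjusted p = 0.000956). It was picked out after its values were seen, as was Ptges, a prostaglandin E synthase, which was lower in 14B3 (-0.81).

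Cldn6, a claudin of tight junctions best known from embryonic epithelia (Entrez Gene 54419, chromosome 17), read 6.36 and 6.59 in 9A1 and 10.25 and 9.53 in 14B3. It was 10.7-fold higher in 14B3 (3.41 ± 0.23 SE, adjusted p = 9.32e-06). In the list of epithelial junctions and keratins 4 of 41 genes were called higher and 0 lower, against the 0.936% and 0.878% of all autosomal genes. Beside Cldn6 these were the desmosomal cadherins Dsc2 (1.35) and Dsg2 (1.27) and the keratin Krt20 (0.79). Dsc2 lost its call without basal_9A1 replicate 1 (adjusted p = 0.0874) and without basal_14B3 replicate 2 (adjusted p = 0.0736), and the list had 1 to 5 called genes when 1 basal array was left out. The median of the list was 0.10, and most of its members, among them E-cadherin (Cdh1, 0.43) and the claudins Cldn3, Cldn4 and Cldn7 (0.03 to 0.04), were not called.

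Several genes of the fetal and adult hepatocyte were higher in 14B3, but few other hepatocyte genes were called. Afp encodes alpha-fetoprotein, the main serum protein of the fetal liver (Entrez Gene 11576, chromosome 5). Afp read 8.11 and 7.90 in 9A1 against 10.53 and 10.45 in 14B3, 5.60-fold higher (2.48 ± 0.40 SE, adjusted p = 0.00784). The call did not survive the loss of a basal array: the adjusted p was 0.0588 without basal_9A1 replicate 1, 0.0543 without basal_9A1 replicate 2, 0.0559 without basal_14B3 replicate 1 and 0.0702 without basal_14B3 replicate 2. Of the 5 probe sets of Afp, another gave 2.53 and was called, while the rest gave 2.18, 0.40 and 0.02 and were not. Fabp1, the fatty acid binding protein of liver (Entrez Gene 14080, chromosome 6), read 6.73 and 7.11 in 9A1 and 9.15 and 10.59 in 14B3, 7.76-fold higher (adjusted p = 0.00095). A second probe set of Fabp1 gave 2.66 and was called as well (adjusted p = 0.0068). Acaa1b, a thiolase of peroxisomal fatty acid oxidation, was 6.32-fold higher (2.66 ± 0.20 SE, adjusted p = 3.22e-05).

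The secreted hepatocyte proteins held 1 called gene of 45, Afp (2.22%, against 1.81% of all autosomal genes), with a median of 0.09. The hepatocyte enzymes and transporters held 3 of 46 (6.52%). Fabp1 and Cth were higher, and Aldh1a1, a retinaldehyde dehydrogenase, was lower, with 9.20 and 8.18 in 9A1 against 5.73 and 6.78 in 14B3. Of 26 liver transcription factors the only called gene was Cebpd, a C/EBP family factor, which was 2.50-fold lower in 14B3 (adjusted p = 0.000795; 0.0742 with the mean of its probe sets). Values without a call were 0.15 for Hnf4a, 0.45 for Foxa1, -0.21 for Foxa2 and 0.33 for Cebpa. Among 26 bile duct genes the only call was Sox9, a factor of duct cells, at -0.83 (adjusted p = 0.0383). Sox9 lost that call without each basal array, with an adjusted p from 0.0571 without basal_9A1 replicate 2 to 0.457 without basal_9A1 replicate 1. Krt7, a duct keratin, stood at -1.09 and was not called (adjusted p = 0.356).

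Sox17, a factor of early endoderm and of the bile duct and gallbladder primordium (Entrez Gene 20671, chromosome 1), read 6.83 and 7.07 in 9A1 and 9.03 and 9.17 in 14B3. Its difference of 2.15 ± 0.19 SE (adjusted p = 0.000114) was larger with a second probe set (3.61). Gata5, a zinc finger factor of endoderm and heart, went the other way, with a difference of -1.20 (adjusted p = 0.0127). Leaving out basal_9A1 replicate 1 (0.173) or basal_14B3 replicate 1 (0.131) ended the Gata5 call.

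**Figure D2:**
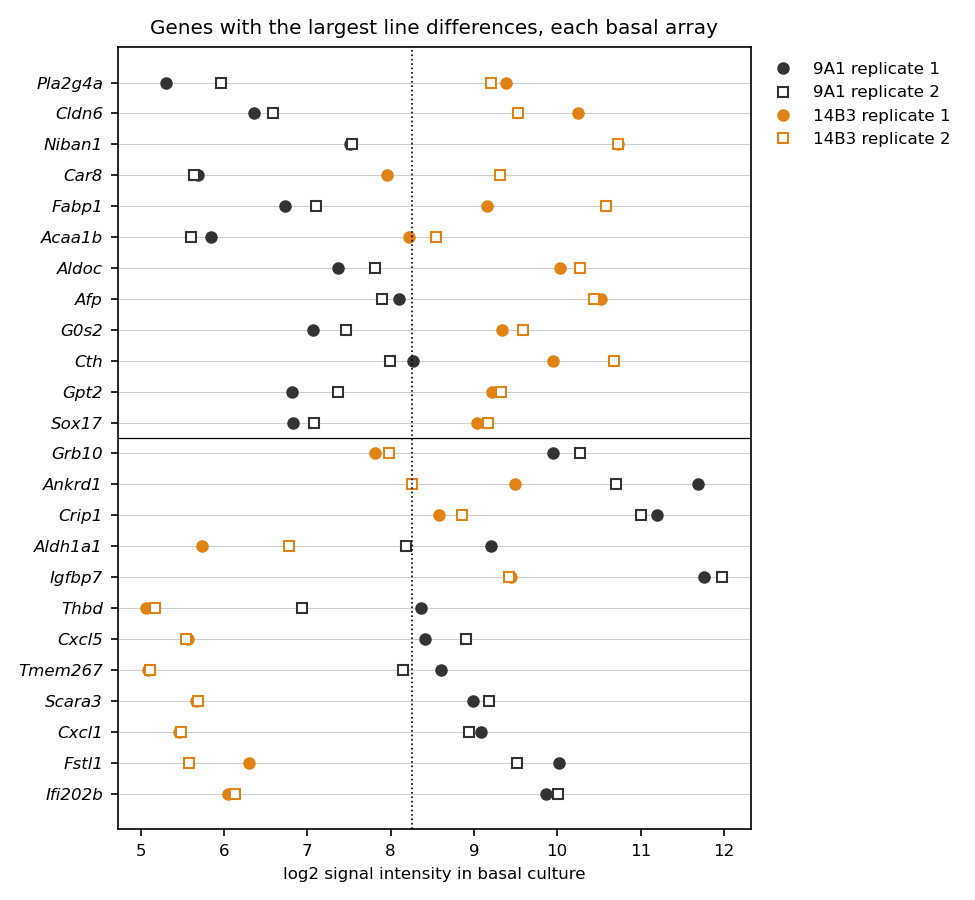
Log2 signal intensity (x axis) on each basal array of the 12 genes with the largest called difference in each direction. Black symbols are 9A1 and orange symbols 14B3, filled circles replicate 1 and open squares replicate 2, and the dotted line marks 8.26, the guide to a dim level. In all 24 genes the 2 arrays of one line lie on one side of the 2 arrays of the other, which the choice of genes required. The same held for all 217 called genes and for 42.1% of all autosomal genes.

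The next list covers the response to unfolded protein and to amino acid shortage. When amino acids are scarce or unfolded protein builds up, cells phosphorylate the initiation factor eIF2 and translate more of the transcription factor Atf4, which turns on genes of amino acid synthesis, uptake and tRNA charging. Unfolded protein in the endoplasmic reticulum also raises chaperones through Atf6 and Xbp1. Of 37 autosomal genes in the list of unfolded protein and amino acid stress, 8 were called higher in 14B3 and 0 lower (21.6%, against 1.81% of all autosomal genes), with a median of 0.31 against 0.05. Of the 37 differences 25 were positive, against 7347 of 11963 over all autosomal genes. At an unadjusted p below 0.05 (limma) 15 were higher and 3 lower. With the replicate block 11 were called. Without basal_9A1 replicate 1 or without basal_14B3 replicate 2 the count was 2, and without either of the other basal arrays it was 5.

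The 8 genes were Cth, Chac1, Trib3, Psph, Nupr1, Slc3a2, Mthfd2 and Atf4 itself. Cth encodes cystathionine gamma-lyase, which makes cysteine (Entrez Gene 107869, chromosome 3). Cth read 8.27 and 7.995 in 9A1 against 9.95 and 10.68 in 14B3, 4.55-fold higher (2.19 ± 0.30 SE, adjusted p = 0.00327). Chac1, which breaks down glutathione, read 7.84 and 7.95 against 10.26 and 9.49, 3.95-fold higher (adjusted p = 0.00046). Trib3, a pseudokinase that feeds back on Atf4, read 7.90 and 8.74 against 9.65 and 10.84 (1.93 ± 0.33 SE, adjusted p = 0.0122). The lines did not overlap in these 3 genes, as in all 217 called genes, and in Trib3 replicate 2 was the higher array of both lines. Psph, the last enzyme of serine synthesis, was at 1.73, Nupr1, a small nuclear stress protein, at 1.43, Slc3a2, the heavy chain of amino acid transporters, at 0.90, Mthfd2, a mitochondrial folate enzyme, at 0.76 and Atf4 at 0.69 (12.14 and 12.16 in 9A1, 12.74 and 12.94 in 14B3). The adjusted p of these 5 ran from 0.0151 for Mthfd2 to 0.0376 for Nupr1.

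Members without a call included genes of both arms. Asparagine synthetase (Asns) was at 1.09 (adjusted p = 0.363), Shmt2, a mitochondrial serine hydroxymethyltransferase, at 1.01 (adjusted p = 0.0732) and Psat1, of serine synthesis, at 0.79 (adjusted p = 0.529). Of the chaperones and folding enzymes of the endoplasmic reticulum, Hspa5 stood at 0.18, Hsp90b1 at -0.03, Pdia4 at -0.30, Pdia3 at -0.37 and Calr at -0.50, and none of the 5 was called. Other genes of amino acid metabolism outside the list, picked out after their values were seen, were also called higher. They were Gpt2, the mitochondrial alanine aminotransferase (2.18), Slc1a5, a glutamine transporter (1.35), Bcat1, which starts the breakdown of branched-chain amino acids (1.22), the mitochondrial enzyme Pck2 (1.12), the leucyl and seryl tRNA synthetases Lars (1.04) and Sars (0.76), and Eif4ebp1, a translation repressor (0.77). Niban1, a protein induced under cell stress (Entrez Gene 63913, chromosome 1), read 7.51 and 7.54 in 9A1 and 10.73 on both 14B3 arrays, 9.23-fold higher (3.21 ± 0.18 SE, adjusted p = 2.48e-06). Gpt2 lost its call without basal_9A1 replicate 1 (adjusted p = 0.089) and without basal_14B3 replicate 2 (adjusted p = 0.0713).

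Promoters of these genes are shown because Atf4 and its C/EBP partners are known to bind a composite element in genes of this response. The motif TGATGNAA was searched on both strands (TTNCATCA on the other strand) in windows from 250 bases before to 50 bases after each gene's start, taken from RefSeq on GRCm38.p6. The motif was chosen after the list's values were seen. Of the 8 called members, 7 had a window and 3 of these held a match, whereas 3.97% of all 32851 windows did. Among the 36 windows of 32 measured list members 7 held it. The 3 windows follow, 5′ to 3′ on the strand of the gene, with the match in capitals; each match reads on the strand opposite to the gene.
Chac1, chr2:119350992-119351291, plus strand: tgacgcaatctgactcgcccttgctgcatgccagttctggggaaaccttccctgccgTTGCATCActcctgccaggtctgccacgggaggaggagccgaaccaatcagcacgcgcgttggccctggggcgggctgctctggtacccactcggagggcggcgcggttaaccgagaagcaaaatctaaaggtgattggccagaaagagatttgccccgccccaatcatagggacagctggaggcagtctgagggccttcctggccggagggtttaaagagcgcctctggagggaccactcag
Trib3, chr2:152344011-152344310, minus strand: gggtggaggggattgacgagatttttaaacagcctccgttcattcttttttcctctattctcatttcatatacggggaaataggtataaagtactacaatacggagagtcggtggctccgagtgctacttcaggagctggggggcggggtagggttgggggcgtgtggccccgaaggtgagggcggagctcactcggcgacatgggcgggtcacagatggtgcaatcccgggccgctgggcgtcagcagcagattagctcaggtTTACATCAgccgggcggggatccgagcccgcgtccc
Nupr1, chr7:126625421-126625720, minus strand: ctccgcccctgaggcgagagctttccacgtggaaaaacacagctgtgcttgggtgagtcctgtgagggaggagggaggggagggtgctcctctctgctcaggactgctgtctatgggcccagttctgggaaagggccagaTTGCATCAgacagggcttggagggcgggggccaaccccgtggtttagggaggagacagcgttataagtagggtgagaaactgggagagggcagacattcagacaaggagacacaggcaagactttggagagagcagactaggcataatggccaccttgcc
The match lies at bases 58 to 65 of the Chac1 window and 141 to 148 of the Nupr1 window, both before the start. In Trib3 it lies at bases 265 to 272, just after the start. The windows of Atf4, Psph, Mthfd2 and Slc3a2 did not hold these letters.

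Enzymes of sterol synthesis stood higher in 14B3 as a group of small differences. The cell makes cholesterol from acetyl-CoA through mevalonate, farnesyl diphosphate and lanosterol, under the control of the factor Srebf2. Over all 11963 autosomal genes 7347 differences were positive. All 26 measured autosomal genes of cholesterol and fatty acid synthesis had a positive difference, also with arrays centred on the median or quantile-normalised. Their median was 0.60, and 4 were called higher and 0 lower (15.4%, against 1.81% of all autosomal genes). With the replicate block 9 were called. The 4 were Lss, which makes lanosterol, Mvd and Fdps, which act between mevalonate and farnesyl diphosphate, and Scd1, which puts the double bond into stearic acid. Lss read 9.70 and 9.78 in 9A1 against 11.02 and 10.84 in 14B3, 2.29-fold higher (1.19 ± 0.17 SE, adjusted p = 0.00354). Lss was called without each basal array in turn. Mvd at 1.02, Scd1 at 1.02 and Fdps at 0.72 had adjusted p of 0.0343, 0.0391 and 0.0446. Scd1 lost its call with the mean of its probe sets (0.89, adjusted p = 0.139), quantile normalisation (0.0763) and a pseudocount of 32 (0.0574). Its second probe set gave 0.75 with no call. Mvd lost its call with quantile normalisation (0.0515) and a pseudocount of 32 (0.0504). Without a basal array the list held 1 or 2 called genes, 2 without basal_9A1 replicate 2 and 1 without each of the others. The fatty acid synthesis genes Fasn (0.07), Acaca (0.07) and Acly (0.21) were at the low end of the list, below the sterol genes Cyp51 (0.83), Sqle (0.66) and Hmgcs1 (0.64), and none of these 6 was called.

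Genes of hypoxia and glycolysis gave 4 calls higher and 0 lower of 28 (14.3%, against 1.81% of all autosomal genes), with a median of 0.35. Of the 28 differences 26 were positive, against 7347 of 11963 over all autosomal genes. With the replicate block 7 were called. Aldoc, the brain-type aldolase of glycolysis (Entrez Gene 11676, chromosome 11), read 7.37 and 7.81 in 9A1 and 10.04 and 10.27 in 14B3, 5.92-fold higher (adjusted p = 0.00285). The second probe set of Aldoc, with a mean level of 5.48, gave -0.04 with no call. Ndrg1, which is raised by low oxygen, was 2.25-fold higher (adjusted p = 0.0371), Vegfa, the vascular growth factor, 1.77-fold (adjusted p = 0.03), and Pfkl, the liver phosphofructokinase, was at 0.79 (adjusted p = 0.0239). Without basal_14B3 replicate 1 the list held 3 called genes, and without each of the other basal arrays it held 1. Ero1a (1.49, adjusted p = 0.175) and Bnip3 (1.35, adjusted p = 0.155) were not called, and the lactate dehydrogenase gene Ldha stood at 0.06.

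Among the remaining leading genes, G0s2, which inhibits the lipase that breaks down stored triglyceride, was 4.59-fold higher in 14B3 (adjusted p = 0.000327). Car8, a carbonic anhydrase relative without enzyme activity, was 7.84-fold higher (adjusted p = 0.0187), with 7.95 and 9.31 on the 14B3 arrays. Car8 lost its call without basal_9A1 replicate 1 (adjusted p = 0.139), basal_9A1 replicate 2 (0.0942) or basal_14B3 replicate 2 (0.199), and its second probe set was at 0.74 with no call.

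**Figure D3:**
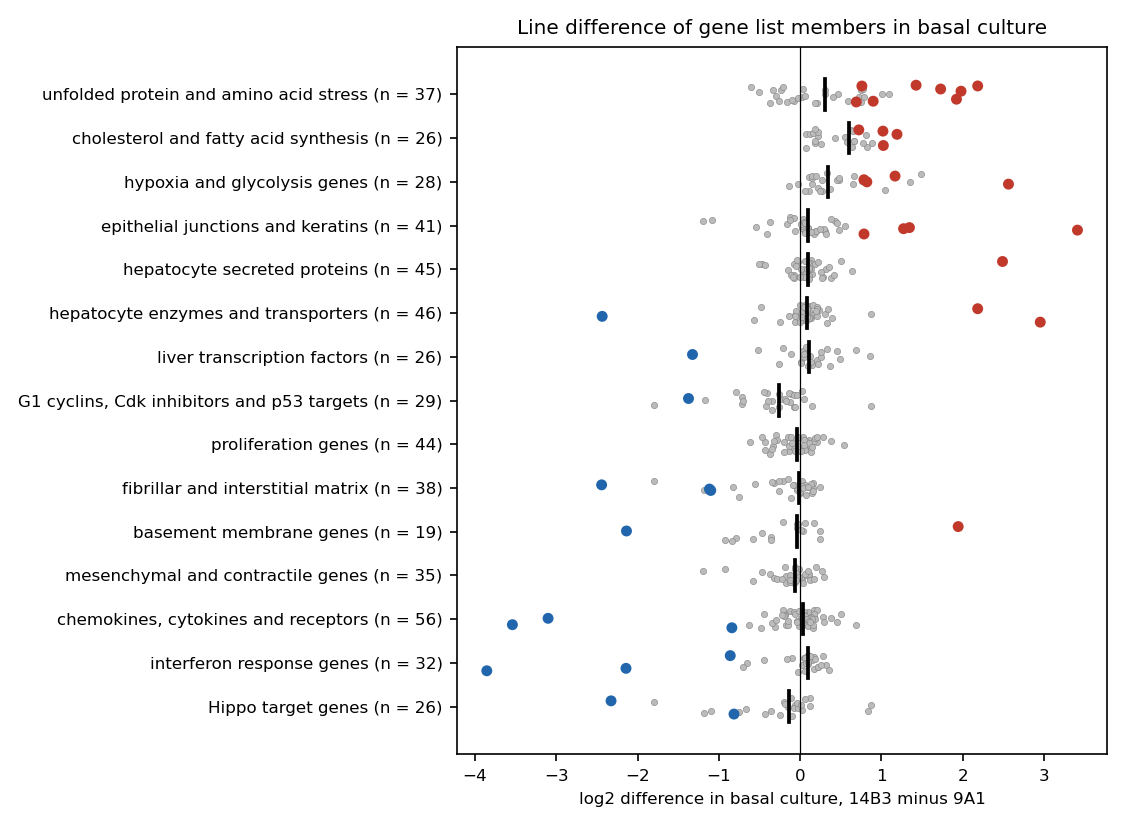
Log2 difference in basal culture, 14B3 minus 9A1 (x axis), of each measured autosomal member of 15 gene lists, with the number of members beside the name. Red and blue points are genes called higher and lower in 14B3, grey points are not called, and black bars are list medians. Every member of the cholesterol and fatty acid list lies above 0, while the list of G1 cyclins, Cdk inhibitors and p53 targets lies mostly below.

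Ifi202b had the largest difference among the genes called lower. Ifi202b, an interferon-inducible protein that binds DNA (Entrez Gene 26388, chromosome 1), read 9.87 and 10.01 in 9A1 and 6.05 and 6.13 in 14B3. It was 14.5-fold lower in 14B3, with an SE of 0.18 log2 units (adjusted p = 6.83e-07). The gene has close relatives in the same cluster, so the assignment of this probe set to Ifi202b is uncertain, and its neighbour Mndal was higher in 14B3 (1.66). Of 32 interferon response genes 3 were called lower and 0 higher (9.38%, against 1.81% of all autosomal genes). The others were Ifitm2, a membrane protein that restricts virus entry (4.41-fold lower, adjusted p = 0.000185), and Irgm1, an immunity-related GTPase (-0.86). The median of the list was 0.10, with 23 of 32 positive, against 7347 of 11963 over all autosomal genes. The interferon genes Mx1 (0.06), Ifit1 (0.12) and Stat2 (0.22) were not called. Isg20, an interferon-stimulated gene outside the list that was picked out after its direction was seen, was called higher in 14B3.

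Cxcl1 and Cxcl5, chemokines that attract neutrophils, were lower in 14B3. Cxcl1 (Entrez Gene 14825, chromosome 5) read 9.09 and 8.94 in 9A1 and 5.46 and 5.49 in 14B3, 11.6-fold lower (adjusted p = 6.83e-07). Cxcl5, on the same chromosome and acting through the same receptor, read 8.41 and 8.90 against 5.57 and 5.54, 8.58-fold lower (adjusted p = 5.38e-06). The 14B3 levels of both lie under the guide to a dim level, so these folds may be too small. Csf1, the macrophage growth factor, was the third called gene of the 56 in the list (-0.84, adjusted p = 0.0477), and 0 were higher. The called share of the list was 5.36%, against 1.81% of all autosomal genes. Other probe sets of Csf1 gave -0.47, -0.07 and -0.05 with no call. The related chemokines Cxcl2 (-0.15), Cxcl16 (-0.18), Cxcl12 (-0.35) and Ccl2 (-0.44) were not called, and the list's median was 0.03.

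Fstl1, a secreted glycoprotein of the follistatin family (Entrez Gene 14314, chromosome 16), read 10.02 and 9.52 in 9A1 against 6.30 and 5.58 in 14B3, 14.2-fold lower (adjusted p = 0.000184). Its second probe set gave -3.35. Scara3, a scavenger receptor family member, was 10.6-fold lower (adjusted p = 0.000224), and Tmem267, a predicted transmembrane protein, 9.70-fold lower (adjusted p = 2.95e-05). Thbd, thrombomodulin, which turns thrombin towards protein C, was 5.77-fold lower (adjusted p = 0.00175), with 9A1 arrays at 8.36 and 6.94. Crip1, a small LIM protein, was 5.24-fold lower (adjusted p = 0.000143), and its neighbour and relative Crip2 on chromosome 12 stood at -1.55 and was called as well.

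In the lists of basement membrane and of fibrillar and interstitial matrix, the called genes other than Lamb3 were lower in 14B3. Acan, a cartilage proteoglycan outside these lists that was picked out after its value was seen, was higher (1.28). Nid1, nidogen, which links laminin to type IV collagen in basement membranes (Entrez Gene 18073, chromosome 13), read 11.20 and 11.46 in 9A1 and 9.38 and 9.00 in 14B3, 4.40-fold lower (adjusted p = 0.000203). Of 19 basement membrane genes only Nid1 and Lamb3 were called (10.5%, against 1.81% of all autosomal genes). Lamb3, the beta chain of the laminin under stratified epithelia, was higher in 14B3 (9.60 and 9.76 against 11.67 and 11.58, adjusted p = 0.0281), and lost that call without each basal array (adjusted p from 0.106 without basal_9A1 replicate 2 to 0.218 without basal_9A1 replicate 1). In the list of fibrillar and interstitial matrix 3 of 38 genes (7.89%) were called lower and 0 higher. They were the secreted protein Igfbp7, the collagen gene Col5a2 (-1.10) and Ecm1 (-1.11). Igfbp7 read 11.76 and 11.98 against 9.44 and 9.42 (adjusted p = 0.0373), but its 2 other probe sets gave -0.37 and 0.03, and no call remained without 1 basal array (adjusted p from 0.177 to 0.231). The median of the list was -0.02. Of 35 mesenchymal and contractile genes limma called 0 (1 lower with the replicate block), and 4 were lower and 0 higher at an unadjusted p below 0.05 (median -0.06). Over all 11963 autosomal genes 1091 reached that unadjusted p.

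Targets of the Hippo pathway, whose effectors Yap1 and Wwtr1 respond to cell density and stretch, gave 2 calls lower and 0 higher of 26, with a median of -0.13. The called share was 7.69%, against 1.81% of all autosomal genes. Ankrd1 read 11.69 and 10.71 in 9A1 and 9.50 and 8.25 in 14B3, 5.02-fold lower (adjusted p = 0.0115). This call ended without basal_9A1 replicate 1 (0.145) and without basal_14B3 replicate 2 (0.111). Crim1, a membrane protein that binds bone morphogenetic proteins, was the second (-0.81, adjusted p = 0.00938, and 0.0517 to 0.113 without 1 basal array). The target genes Ccn2 (-1.80, adjusted p = 0.117) and Ccn1 (-1.18) were not called, and Yap1 and Wwtr1 stood at 0.01 and 0.06.

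Genes of the G1 step of the cell cycle and of p53 had mostly negative differences, while genes of replication and mitosis gave no call. In the list of G1 cyclins, Cdk inhibitors and p53 targets, 25 of 29 differences were negative, with a median of -0.26. Over all 11963 autosomal genes 4616 were negative. Pmaip1, a p53 target that promotes cell death, was called lower (2.61-fold, adjusted p = 0.0127, but 0.0532 to 0.145 without 1 basal array). With the replicate block 5 genes were called lower. Cdkn2b, an inhibitor of Cdk4 and Cdk6, stood at -1.80 (adjusted p = 0.0684), cyclin D1 (Ccnd1) at -1.17 (adjusted p = 0.0719) and Ccng1, a p53 target, at -0.79 (adjusted p = 0.177). Of 44 proliferation genes limma called 0, also with the replicate block, and 3 were lower and 0 higher at an unadjusted p below 0.05 (median -0.04). Over all 11963 autosomal genes 1091 reached that unadjusted p. Mki67, a marker of cycling cells, stood at -0.61 (adjusted p = 0.588).

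Imprinted genes, which are read from the copy of only one parent in at least some tissues, gave 2 calls in each direction among 44. The called share was 9.09%, against 1.81% of all autosomal genes. Grb10, an adaptor that damps insulin receptor signals (Entrez Gene 14783, chromosome 11), read 9.95 and 10.27 in 9A1 and 7.81 and 7.99 in 14B3, 4.64-fold lower (adjusted p = 0.0104). Without a basal array its adjusted p was 0.0615 to 0.0785. The other probe sets of Grb10 gave -0.90 and -0.26 with no call. The Grb10 neighbour Ddc, the aromatic amino acid decarboxylase, was 2.44-fold higher in 14B3 (adjusted p = 0.0026). Gatm, which makes the precursor of creatine, was 4.34-fold higher (adjusted p = 0.000306), and Ndn, necdin, was 2.63-fold lower (adjusted p = 0.0379, but 0.0583 to 0.38 without 1 basal array). Igf2, the fetal growth factor, stood at 0.01 with levels of 8.14 to 8.31.

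The other lists held few calls. Integrin subunits (21 genes), Hox genes (34), Notch pathway genes (28), proteoglycans (28) and immediate early genes (32) held 0 called genes by limma in basal culture. With the replicate block 1 immediate early gene was called lower, and the rest of these lists still held 0. At an unadjusted p below 0.05 these lists held 0, 1, 2, 1 and 4 genes. Over all 11963 autosomal genes 217 were called and 1091 reached that unadjusted p. Of 44 Nrf2 and glutathione genes 2 were higher, the carbonyl reductase Cbr1 (2.05-fold, adjusted p = 0.00608) and the aldehyde dehydrogenase Aldh3a1 (1.94-fold, adjusted p = 0.0458). Of 40 proteases and inhibitors 2 were lower, Adam9 and the plasminogen activator Plat, by 1.63-fold and 1.62-fold. The Wnt list held Wnt7a (1.73-fold lower, 1 of 47), and the list of TGF-beta and BMP genes held Fstl1 (1 of 42). Of 54 growth factor and receptor genes 2 were higher, Vegfa and Mst1, a ligand made by hepatocytes (2.39-fold, adjusted p = 0.0222). Of 33 acute phase and complement genes Cp, ceruloplasmin, was lower (3.54-fold, adjusted p = 0.0359). Of 25 progenitor surface genes only Cd34 was called, 2.48-fold lower (adjusted p = 0.000387), with all 4 basal arrays under the guide to a dim level. Of 22 antigen presentation genes Tap1 was lower (1.60-fold), but it stood at -0.10 with no call with the mean of its probe sets. H2-D1 was higher with its brightest probe set (3.17-fold) and stood at -0.08 with the mean of its 9, and this family of near-identical genes cannot be told apart by the probe set. Of the calls in these lists, only those of Fstl1 and Cd34 held without each basal array in turn. Aldh3a1 (adjusted p = 0.0767 to 0.45), Cp (0.064 to 0.247), Adam9 (0.14 to 0.285), Plat (0.109 to 0.278) and Tap1 (0.173 to 0.255) lost theirs without each of the 4. Aldh3a1 also lost its call with median centring (0.0571) and quantile normalisation (0.0638), and Cp with quantile normalisation (0.0542), the mean of its probe sets (0.052) and both pseudocounts (0.0514 and 0.0679).

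Line differences in the other cultures were measured on separate arrays, and the tests share only the estimate of the spread. In aggregate culture 178 autosomal genes were called between the lines (1.49%) and in Matrigel culture 443 (3.7%), and with the replicate block 271 and 709. Of the 217 genes called in basal culture, 172 had the same sign in aggregates and 47 were called with it, or 21.7%, while 2 were called with the opposite sign. In Matrigel 179 had the same sign and 92 were called with it, or 42.4%, and 3 with the opposite sign. Over all autosomal genes the same sign was found for 60.5% of those above 0 and 49.6% of those below 0 in aggregates, and for 67.6% and 53.9% in Matrigel. A group of 39 genes, 20 higher and 19 lower, were called with 1 sign in all 3 cultures, and 114 of the 217 were called in neither other culture.

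The 6 genes per direction with the largest smallest difference over the 3 cultures, among those called with 1 sign in all 3, included Ifi202b, at -4.94 in aggregates and -5.55 in Matrigel. Tmem267 stood at -3.26 and -2.92, Nid1 at -3.03 and -3.85, Grb10 at -2.15 and -3.40, Epb41l3, a band 4.1 protein of the membrane skeleton, at -1.94 and -1.99 (-1.83 in basal culture), and Emp3, an epithelial membrane protein, at -1.65 and -1.78 (-1.59 in basal culture). On the higher side Acaa1b was at 5.08 and 4.25, Sox17 at 2.37 and 4.32, Pla2g4a at 1.60 and 2.63, Niban1 at 1.43 and 2.52, Tmprss2, a transmembrane serine protease, at 2.28 and 2.40 (1.64 in basal culture), and Aspa, which splits acetylaspartate, at 1.56 and 3.83 (1.84 in basal culture). All of these values were called in their culture, but their size was not constant: Ifi202b, Nid1, Sox17 and Aspa differed between basal and Matrigel culture by the test of the next paragraph, Pla2g4a and Niban1 between basal and aggregate culture, and Acaa1b in both.

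Whether a line difference changed between basal culture and another culture was tested as a difference of differences. Against aggregate culture 55 autosomal genes passed (0.46%), 29 of them among the 217, and against Matrigel culture 82 passed (0.685%), 31 of them among the 217. The 217 were chosen on the same basal arrays that enter both tests. Their overlap with the genes that passed, and smaller differences in the other cultures, are therefore partly built in by that choice. With the replicate block 113 and 177 passed. Single arrays moved these counts to between 20 (without basal_9A1 replicate 1) and 94 (without aggregate_9A1 replicate 1) for aggregates, and down to 27 (without basal_9A1 replicate 1) for Matrigel. In 15 of the 217 both tests passed, which does not mean that their line difference was confined to basal culture. Acaa1b was one of the 15, with larger differences in aggregates (5.08) and Matrigel (4.25) than in basal culture (2.66). Cldn6 and Cxcl1 also passed both tests and were still called with the same sign in Matrigel. Afp was another of the 15: 14B3 exceeded 9A1 by 2.48 in basal culture and stood at -0.81 in aggregates and -1.04 in Matrigel. Fabp1, at 2.96 in basal culture, stood at -0.19 in both other cultures. Cldn6 was at -0.14 in aggregates and 0.97 in Matrigel, against 3.41. Scd1 and Mrc1, the mannose receptor, turned their sign. Scd1 was at 1.02 in basal culture, a call lost under several settings as given above. In 14B3 Scd1 was called lower in aggregates (-2.08) and in Matrigel (-1.27). Mrc1 was at 1.25 in basal culture, -1.13 in aggregates and -0.63 in Matrigel. On the lower side Cxcl1 stood at -0.50 in aggregates and -1.36 in Matrigel, and Cxcl5 at -0.26 and -0.55. Adamtsl4, a matrix protein of fibrillin fibres, was at -0.11 and -0.56 against -2.13. In aggregates both lines were dim for Cxcl5 (5.04 in 9A1 and 4.78 in 14B3), Adamtsl4 (6.015 and 5.908) and Cldn6 (6.69 and 6.56). Fabp1 was bright there, at 14.34 and 14.16. Whether a dim or bright level hides a line difference was not tested. Of the stress genes Chac1 passed both tests, at 0.33 and 0.14 against 1.98. The list of unfolded protein and amino acid stress held 0 genes called by limma in both aggregates and Matrigel, with medians of 0.08 and 0.17. At an unadjusted p below 0.05 it held 0 and 5, against 967 and 1457 of all 11963 autosomal genes. The cholesterol list held 1 gene called lower and 0 higher in each, with medians of 0.16 and 0.06.

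**Figure D4:**
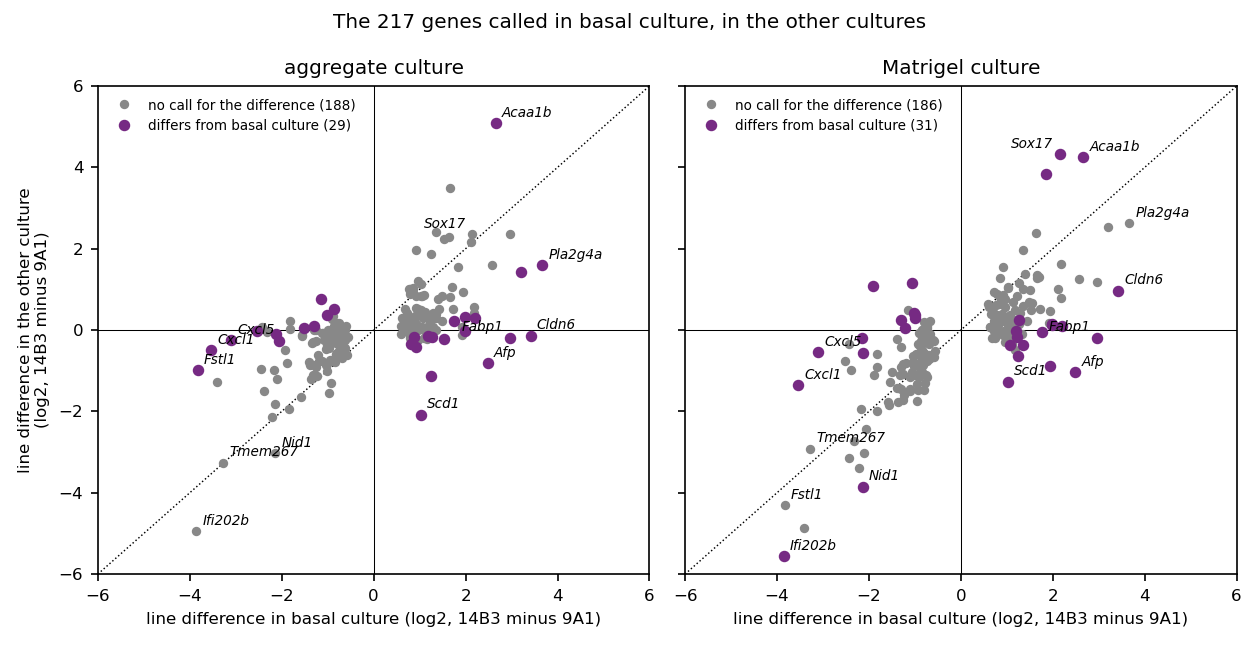
Line difference (log2, 14B3 minus 9A1) of the 217 genes called in basal culture (x axis) against that in aggregate culture (left, y axis) and Matrigel culture (right, y axis). Purple points are genes whose difference differed from that in basal culture, 29 for aggregates and 31 for Matrigel, and the dotted line marks equal differences. Ifi202b, Tmem267 and Nid1 stay low in both cultures, while Afp, Fabp1 and Cxcl5 lie close to or across 0. Cxcl1 lies at -0.50 in aggregates and -1.36 in Matrigel.

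By position, chromosome 7 stood apart from the other autosomes. Among the 449 chromosome 7 genes above the median level the median difference in basal culture was -0.22, and on the other autosomes it was -0.02 to 0.07. Of these 449 genes, 339 were lower in 14B3 by sign, or 75.5%, against 42.8% of such genes elsewhere. Over all 959 genes of the chromosome, dim ones included, the median was smaller, at -0.04, against 0.02 to 0.07 on the other autosomes. Relative to each gene's mean over the 12 arrays, and with each array's median taken off, chromosome 7 stood at 0.06 and 0.03 on the 9A1 arrays and at -0.18 and -0.12 on the 14B3 arrays. Centring the arrays on the median gave -0.25 for chromosome 7 and quantile normalisation -0.21. The other 18 autosomes kept within -0.05 and 0.07 on all 4. The shift was seen across the chromosome as small differences: 11 of the 449 genes were called lower and 4 higher, and over the whole chromosome 2.09% were called. In aggregates the chromosome 7 median was -0.09 with 68.8% negative, and in Matrigel -0.07 with 63.5% negative. Of windows of 20 neighbouring genes, the 3 lowest all lay on chromosome 7, from Ubfd1 to Sbk1 (-0.29), from Sertad1 to Samd4b (-0.27) and from C2cd3 to Numa1 (-0.27). The highest were from Loxl4 to Ndufb8 on chromosome 19 (0.22), which holds Scd1, from Suv39h2 to Sfmbt2 on chromosome 2 (0.20) and from Tcte1 to Zfp318 on chromosome 17 (0.19), which holds Vegfa. Genes are not replicates, so these values carry no p, and what sets the level of chromosome 7 was not tested.

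**Figure D5:**
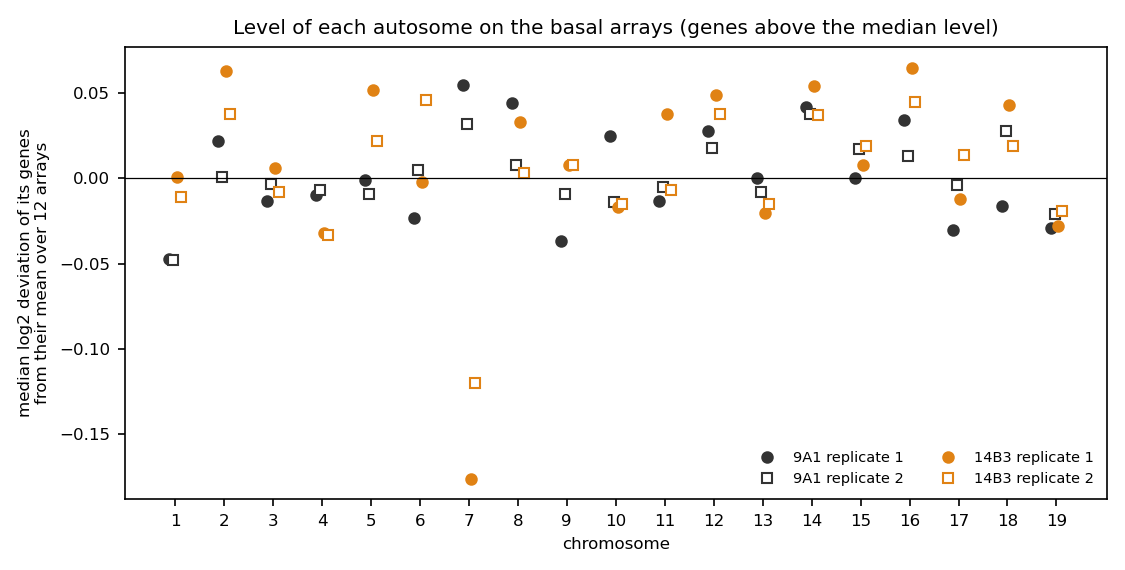
Median log2 deviation of the genes of each autosome from their own mean over 12 arrays (y axis), on each basal array, for genes above the median level. Black symbols are 9A1 and orange symbols 14B3, filled circles replicate 1 and open squares replicate 2. On chromosome 7 both 14B3 arrays lie at -0.18 and -0.12, below every other point of the plot.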

How the data were processed

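RNA was hybridised to 12 Affymetrix mouse 430A arrays after labelling 5 ug of total RNA as biotinylated cRNA, per the labels' protocols. For each probe set the authors deposited a signal intensity on a linear scale, after RMA in R 2.3.1 per the submitters' processing notes, and its log2 was taken here. Depth is not counted on arrays, and the number of arrays limits the precision. Of 22690 probe sets, 20380 had 1 symbol in the platform annotation, 691 several, 1555 none and 64 were controls, and each gene was read from its brightest probe set. Chromosomes came from a RefSeq gene table matched by gene ID.

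Means of the 6 groups were fitted with limma 3.58.1 (lmFit, eBayes) in R 4.3.3, with 6 residual and 5.551 prior degrees of freedom, two-sided, without the replicate block. The fit was tested on simulated data with noise independent between arrays, which leaves out the shared replicate deviations described below. There it called 12.7% of changes of 0.5 log2 units and 90.8% of changes of 1 log2 unit. Of its calls 5.57% were false.

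Replicate numbers deviated together in all 15 pairs of groups (r from 0.10 to 0.64, 0.57 between the basal groups), so a fit with the number as a block is given beside some of the results it changes. It is not given for every list. With the block 4 Hippo target genes, 4 Wnt pathway genes and 3 TGF-beta and BMP genes were called lower and 0 higher. Imprinted genes gave 3 higher and 4 lower, and Nrf2 and glutathione genes 4 higher and 1 lower. Other alternatives were leaving out each array, other scalings, probe set rules, pseudocounts of 16 and 32, array weights and subsets of the cultures. Named genes were the 12 largest differences per direction; up to 2 called members per list and direction; markers fixed by name; 5 per direction called in basal culture and in both tests of the difference of differences, and 6 per direction called with 1 sign in all 3 cultures; and called genes of the named windows. The 12 per direction were taken among called genes whose basal arrays did not overlap between the lines. The 36 gene lists, the naming rule and the comparison were chosen with earlier results of these data known. Python 3.11.15 with pandas 2.3.3 and matplotlib 3.10.9 made the summaries and plots.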

Additional observations from a re-analysis of the deposited data

Results flagged for a closer look

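The results below stand out because a line difference in basal culture differed from the same line difference in another culture, by a limma test of the difference itself at an adjusted p below 0.05. Each value is the log2 difference between 14B3 and 9A1 in basal culture minus that in the other culture, over 8 arrays. The basal arrays among them also served to choose most of these genes. The largest positive values were of Afp (3.29 against aggregates and 3.52 against Matrigel), Cldn6 (3.55 and 2.44), Fabp1 (3.14 for both) and Scd1 (3.10 and 2.29). Mrc1 gave 2.38 and 1.88, G0s2 1.91 and 2.10, and Chac1 1.65 and 1.84, in the same order. Pla2g4a (2.06) and Niban1 (1.78) differed against aggregates, and Lamb3 (2.82), Nid1 (1.71), Ifi202b (1.70) and Lss (1.23) against Matrigel; for Nid1 and Ifi202b a positive value means that 14B3 was further below 9A1 in Matrigel.

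Negative values came from genes further below 9A1 in basal culture than in the other culture, or further above it in the other culture. The chemokine genes Cxcl1 (-3.04 against aggregates and -2.18 against Matrigel) and Cxcl5 (-2.84 and -2.55) were of the first kind, with Adamtsl4 (-2.03 and -1.58) and Fam111a (-1.38 for both). Fstl1 (-2.84) and Thbd (-2.51) differed against aggregates, and Ifitm2 (-1.95) and Cd34 (-1.56) against Matrigel. Acaa1b (-2.42 and -1.59) was of the second kind, as were Sox17 (-2.17) and Aspa (-1.99) against Matrigel.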

How the results depend on the processing

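For the 217 genes called in basal culture, the count was 407 with the replicate block, 489 with array weights and 84 at an adjusted p below 0.01, and 59 to 214 when 1 array was left out. For the 121 with at least 1 log2 unit it was 74 over genes above the median level, 75 at the stricter p and 58 to 125 without 1 array. In aggregates the count of 178 became 271 with the replicate block, 88 above the median level, 82 at the stricter p and 69 to 183 without 1 array. In Matrigel 443 became 709 with the block, 215 above the median level, 263 with array weights, 221 at the stricter p and 216 to 476 without 1 array. For the difference of differences against aggregates 55 became 113 with the block, 112 with the replicate block within each line, 18 above the median level, 19 at the stricter p and 20 to 94 without 1 array. Against Matrigel 82 became 177, 156, 36 and 27 in the same order, and 27 to 101 without 1 array. H2-D1 changed sign with the mean of its probe sets (-0.081). Of 61 called named genes, 60 kept 1 direction under all alternatives run, H2-D1 being the exception, and 30 lost their call under none; the replicate block ended 0 of their calls and the block within each line 5. Apoa1 gained a call without basal_14B3 replicate 1 (1.05, adjusted p = 0.0267). The causes were not tested. Levels under the guide limit 56 higher genes in 9A1 and 41 lower genes in 14B3, whose folds may be too small.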

Other observations

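Some called genes lie in none of the gene lists and were picked out after their values were seen. Ephx2, an epoxide hydrolase (1.70), Pon3, a paraoxonase (1.54), Cyp3a13, a cytochrome P450 (1.22), and Gldc, of glycine breakdown (1.18), were higher in 14B3. Bicc1, an RNA-binding protein (-2.17), Akap12, a kinase anchoring protein (-2.06), Glipr1 (-2.11) and Cryab, a small heat shock protein (-1.83), were lower.

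Of the 217 called genes 99 have another probe set, 163 in all, of which 136 had the sign of the brightest (83.4%, against 67.7% for genes not called); 48 were called with that sign and 2 with the opposite one. Among 11944 pairs of neighbouring measured genes, both were called in 14, 8 of them in 1 direction, among them Pla2g4a with Ptgs2, G0s2 with Lamb3 and Tm4sf1 with Tm4sf4.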
